A study of Mus musculus with 3 samples.

Results

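The Ifitm family is described here by 4 genes, Ifitm1, Ifitm2, Ifitm3 and Ifitm6, of the 27998 genes counted in single CD133+ bone marrow cells. They were chosen from the measured values, because the level of Ifitm1 was far higher in the library of old mice while other interferon-induced genes were highest in the library of young mice, so the levels and ratios below are a description and carry no test. Cells with the surface marker CD133 (gene Prom1) were sorted from bone marrow of C57BL/6 mice and sequenced as 3 libraries, young (3 months), old (27 months in the label, 18.5 months in the text of the series) and Ctrl (3 months, called control here), and the text gives 3 mice per age. No treatment, genotype or transgene is given for any library, and no label says how control differed from young. The series text speaks of intestinal cells, whereas every label and the protocol name bone marrow. Each condition is therefore a single library of cells pooled from mice, 3 of them by the study's account, and age, mice, sort and library preparation cannot be told apart.

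IFITM proteins are small membrane proteins that sit in the plasma membrane and in endosomes and hinder the fusion of enveloped viruses with the host membrane. Their genes are known as targets of interferon, whose receptors act through the kinases Jak1 and Tyk2 on promoter elements in which GAAA is followed, after any pair of bases, by GAAA again. In mice Ifitm3 is the best studied antiviral member, Ifitm1 is found mostly at the cell surface, and Ifitm6 is known mainly from myeloid cells. Neutrophils form in the bone marrow from promyelocytes, which make the azurophil granule enzymes Mpo and Elane, through precursors that make specific granules, to maturing cells that carry Retnlg, a secreted resistin-like protein.

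The 4 genes lie together on chromosome 7 of GRCm38. Ifitm2 (ENSMUSG00000060591) lies at chr7:140954837-140955987 on the minus strand, and Ifitm1 (ENSMUSG00000025491) at chr7:140967221-140969825 on the plus strand. Ifitm3 (ENSMUSG00000025492) lies at chr7:141009586-141010770 and Ifitm6 (ENSMUSG00000059108) at chr7:141015699-141017924, both on the minus strand. The coding length of Ifitm1, 321 bases with the stop codon, was the shortest, beside 375 bases for Ifitm6, 414 for Ifitm3 and 435 for Ifitm2. Over aligned bases the coding sequences of Ifitm1, Ifitm2 and Ifitm3 were 80.8% to 81.9% identical, and that of Ifitm6 was 65.9% to 68.8% identical to theirs. A 3′ library reads the ends of transcripts, where similar genes could exchange reads. In the last 500 bases of their transcripts, Ifitm1, Ifitm3 and Ifitm6 shared 0 windows of 91 bases with any other annotated transcript. Ifitm2 shared 107 of its 410 windows, 73 of them with the overlapping gene Gm45717 on the same strand and the others with the processed pseudogenes Gm8865 and Gm11951. None of these 3 genes is counted in the matrices, and the level of Ifitm2 is less certain than the others for that reason.

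The promoters are shown because the members differ in the interferon element that the family is known for. RefSeq sequences of GRCm38.p6 were found for all 4 members, and the window from 250 bases before to 50 bases after the RefSeq start was searched on both strands for GAAA, NN and GAAA in a row. Ifitm3 held 2 matches, from positions 3 and 20 after its start, and these did not overlap each other. Ifitm2 held 1 match, from 46 bases before its start. In the windows of Ifitm1 and Ifitm6 no match was found. The element was present in 3.44% of 32851 promoters and in 17 of 33 (51.5%) of the other interferon-induced genes listed below that had a promoter entry. Ifitm1 and Ifitm6 also have transcripts in GENCODE that start further upstream, outside these windows. The part from 120 bases before to 30 bases after the start is printed 5′ to 3′ on the strand of each gene, with matches in capitals.
Ifitm1, chr7:140967956-140968105, plus strand: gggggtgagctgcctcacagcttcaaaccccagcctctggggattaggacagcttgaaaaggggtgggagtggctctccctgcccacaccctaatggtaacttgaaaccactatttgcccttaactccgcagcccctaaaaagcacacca
Ifitm2, chr7:140955932-140956081, minus strand: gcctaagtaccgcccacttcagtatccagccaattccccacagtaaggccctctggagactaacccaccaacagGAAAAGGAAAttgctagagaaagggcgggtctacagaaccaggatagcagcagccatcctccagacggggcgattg
Ifitm3, chr7:141010715-141010864, minus strand: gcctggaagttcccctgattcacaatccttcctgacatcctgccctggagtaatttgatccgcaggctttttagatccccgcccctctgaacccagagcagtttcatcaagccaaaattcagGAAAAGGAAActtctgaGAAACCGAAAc
Ifitm6, chr7:141016863-141017012, minus strand: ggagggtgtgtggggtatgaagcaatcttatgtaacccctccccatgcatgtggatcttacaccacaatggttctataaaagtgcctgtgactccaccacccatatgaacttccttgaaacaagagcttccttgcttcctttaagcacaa

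After removal of cells at the extremes of the UMI count, 7378 young, 9681 old and 9780 control cells were kept, with 74708327, 119588365 and 95980225 UMIs. A UMI is a molecular barcode that counts each captured mRNA molecule once, and levels are given as UMIs per 1000000 UMIs (CPM) with exact 95% intervals that cover counting error only. The young, old and control libraries had medians of 10174.5, 12690 and 9560.5 UMIs per cell. Between 120 and 161 cell barcodes were shared by any pair of libraries. The study calls the sorted cells endothelial-like, drawing among others on uptake and vessel-forming assays. It also reports barely any VE-cadherin (Cdh5) expression in a cluster of published whole-marrow cells that it equates with them. VEGFR2 (Kdr) it reports as high in the CD133+ cells, without saying there whether as RNA or protein. Here Cdh5, the cadherin of endothelial junctions, had 37, 0 and 3 UMIs in the young, old and control libraries, and Kdr had 9, 2 and 9. The 6 endothelial markers tried summed to 7.75 to 11.3 CPM. Most cells carried genes of the neutrophil lineage, and clusters with markers of other blood cells made up 722 young, 73 old and 67 control cells.

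Ifitm1, the shortest member, was at 28.2 CPM in the young library (27.0 to 29.5), 363 CPM in the old library (360.0 to 367) and 8.07 CPM in the control library (7.52 to 8.66). Its old level was 12.9-fold the young level and 45.0-fold the control level. Ifitm2 was at 655 CPM in young, 2163 CPM in old and 873 CPM in control cells. Ifitm6, the myeloid member, was at 855 CPM in young, 3823 CPM in old and 1988 CPM in control cells. For these 3 genes the old library was the highest of the 3. Ifitm3 differed from them: it stood at 1858 CPM for young and 1860 CPM for old cells, whose intervals overlapped, and at 898 CPM in control cells.

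**Figure D1:**
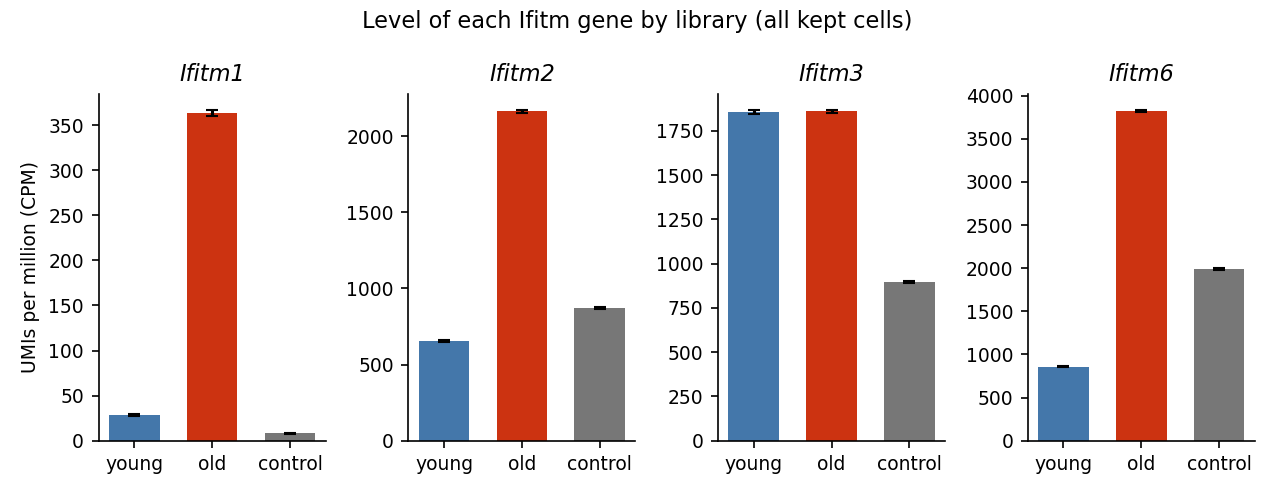
Level of each Ifitm gene in all kept cells of the young, old and control libraries, in CPM on a linear axis from 0 that differs between panels. Bars are 1 library each and error bars are exact 95% counting intervals; Ifitm1 was at 363 CPM in old against 28.2 CPM in young cells, while Ifitm3 stood at 1860 and 1858 CPM.

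The old library was set against the young one, a contrast in which age cannot be told apart from mice, sort and library preparation. With 1 library each, a gene was counted where its levels differed by 1.5 times or more, provided that 10 CPM was reached in one of the libraries compared. Of the 4 members 3 were past that limit and all 3 were higher in old cells, where 19.1% of 5761 genes passed it, 4.36% upwards and 14.7% downwards. Since the members were picked for this contrast, nothing is read from that count. The log2 ratio of old over young was 3.69 (3.62 to 3.75) for Ifitm1, 2.16 (2.15 to 2.17) for Ifitm6 and 1.72 (1.71 to 1.74) for Ifitm2. For Ifitm3 it was 0.0016 (-0.0080 to 0.011), while the median of all genes was -0.15. From the highest ratio, Ifitm1 was the 11th, Ifitm6 the 25th and Ifitm2 the 43rd of the 5761 genes.

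Against the control library, which has the same labelled age as the young one, all 4 members were higher in old cells by more than the limit, where 14.1% of 5470 genes passed it, 5.37% upwards and 8.78% downwards. The log2 ratio of old over control was 5.49 (5.39 to 5.60) for Ifitm1, the second highest of all 5470 genes. It was 1.31 (1.30 to 1.32) for Ifitm2, 1.05 (1.04 to 1.06) for Ifitm3 and 0.94 (0.94 to 0.95) for Ifitm6. At 8.07 CPM in control cells, Ifitm1 reached 10 CPM through the old library alone. Since it was picked for its high level there, nothing is read from its rank or from the count. The comparisons with old cells share the old library, so their values are given side by side and not as separate evidence.

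The young and control libraries, of one labelled age, also differed in these genes. Of the 4 members 3 passed the limit, beside 8.21% of 5728 genes, with 1.59% of all genes passing upwards and 6.62% downwards. At 8.07 CPM in control cells, Ifitm1 reached 10 CPM through the young library alone and could only be called lower. Nothing is read from this count. Ifitm1 was 3.50-fold lower in control cells (log2 ratio -1.81, -1.93 to -1.69), and Ifitm3 was 2.07-fold lower (-1.05, -1.06 to -1.04). Ifitm6 was 2.33-fold higher in control cells (1.22, 1.20 to 1.23), the 11th highest ratio of all genes tested. Ifitm2 was 1.33-fold higher and did not reach the limit. The log2 ratio of control over young for Ifitm1 ranged from -2.56, without cells that had 3 or more UMIs of other-cell markers, to -1.24, with cells grouped by Retnlg as below and the groups weighted equally. Without the cells with other-cell markers old over young was 3.26. That filter left 976 young, 4403 old and 3861 control cells. Most cells it removed were of the neutrophil lineage, so these values do not single out other blood cells.

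The makeup of the family differed as well. The 4 genes summed to 3395 CPM in young, 8209 CPM in old and 3767 CPM in control cells. Ifitm3 supplied 54.7% of the family's UMIs in young cells, but 22.7% in old and 23.8% in control cells. Ifitm6 supplied the largest part in the other libraries, 46.6% in old and 52.8% in control cells, beside 25.2% in young cells. Ifitm1 remained the least abundant of the 4 in every library, with 0.831% of the family's UMIs in young, 4.43% in old and 0.214% in control cells. Of the other family genes, Ifitm5 (known from bone), Ifitm7 and Ifitm10 stayed between 0.067 and 3.75 CPM in every library.

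The next question was whether the difference in Ifitm1 lay in cells of a certain stage. Neutrophil-lineage cells were grouped by Mpo UMIs per 10000 UMIs of the cell, from 50 and above, as in promyelocytes, through 10 to 50 and 2 to 10, to below 2. In old cells Ifitm1 was at 153, 167, 418 and 489 CPM in that order. In young cells it was at 13.2, 20.4, 31.0 and 26.9 CPM, and in control cells at 6.41, 5.34, 7.11 and 11.5 CPM. Every old value lay above every young and control value. Ifitm1 was picked for its high level in the old library, so nothing is read from that order. The log2 ratio of old over young was 3.54 (3.33 to 3.76), 3.04 (2.82 to 3.26), 3.75 (3.66 to 3.84) and 4.18 (4.02 to 4.35) from high to low Mpo. With all 4 bands weighted equally it was 3.75. The bands were not matched in Retnlg, a gene of maturing cells. Below 2 it was at 2460 CPM in old, 996 CPM in young and 666 CPM in control cells. At 2 to 10 it was at 2005, 1016 and 537 CPM. The part of this in the ratios was not tested.

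Ifitm6 had the steepest course over the Mpo bands. It was 21.5-fold higher in young cells with the lowest Mpo than in those with the highest (1450 against 67.5 CPM), 11.5-fold in old cells (5289 against 458 CPM) and 19.0-fold in control cells (3104 against 163 CPM). Old cells were above control cells, and control cells above young cells, in each of the 4 bands. Ifitm2 had a flatter course, with 1.01-fold in young (653 against 647 CPM), 1.82-fold in old (2470 against 1358 CPM) and 1.44-fold in control cells (990 against 685 CPM).

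Ifitm3 was 4.52-fold higher in the lowest than in the highest Mpo band of young cells (2322 against 514 CPM), 2.97-fold in old cells (2142 against 720 CPM) and 6.32-fold in control cells (1249 against 197 CPM). Its near equality between old and young cells as a whole hid differences between bands. Old cells were higher at 50 and above (log2 ratio 0.49, 0.44 to 0.53) and at 10 to 50 (0.78, 0.74 to 0.82). They were slightly lower at 2 to 10 (-0.068, -0.082 to -0.055) and below 2 (-0.12, -0.14 to -0.095). The median of all genes, old over young, was -0.029, 0.048, -0.027 and -0.055 from high to low Mpo, so these slightly lower values lay near it. In control cells Ifitm3 was the lowest of the 3 libraries in each band.

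**Figure D2:**
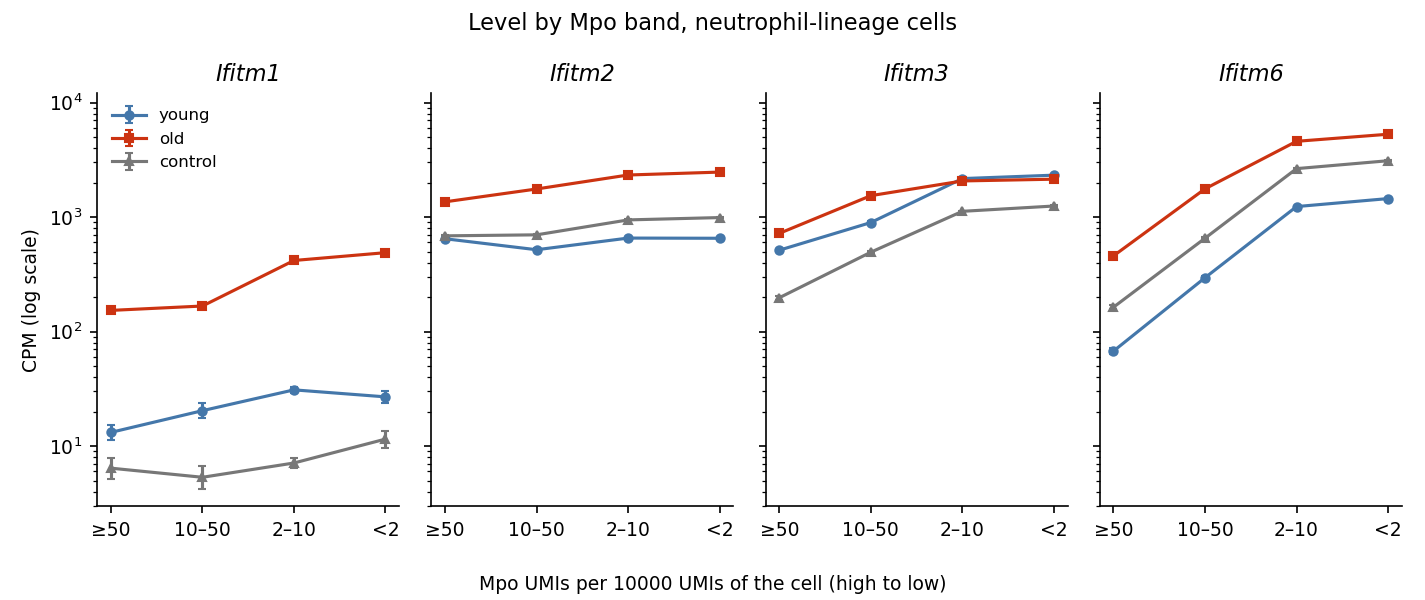
Level of each Ifitm gene in CPM (log scale) by the Mpo UMIs per 10000 UMIs of the cell, from high on the left to low on the right, in neutrophil-lineage cells of the 3 libraries; error bars are exact 95% counting intervals. Ifitm6 climbs the most in each library, and the old line of Ifitm1 (153 to 489 CPM) stays above the young and control lines, while the Ifitm3 lines of old and young cross.

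Maturing neutrophils were then separated by Retnlg, at 30 UMIs per 10000 UMIs of the cell, a split chosen after the data were seen. Such cells were 4.97% of the kept lineage cells in young (331 cells), 12.9% in old (1237 cells) and 2.91% in control (283 cells). Near the split, between 24 and 36, lay 79, 292 and 50 cells. These shares depend on the cell filter. Its lower UMI limit was set for young and old together and for control alone. It removed 809 young, 139 old and 544 control cells, which had Retnlg at 16544, 21317 and 8936 CPM and are not in the shares. Ifitm1 was concentrated in Retnlg-high cells. It was at 227 CPM in Retnlg-high young cells against 18.1 CPM in the others, at 1997 against 220 CPM in old cells, and at 98.3 against 5.70 CPM in control cells. This is 12.5-fold (11.3 to 13.9), 9.09-fold (8.92 to 9.27) and 17.2-fold (14.4 to 20.6). These intervals cover counting error only and not the spread between cells. The young and control values rest on few cells. With each cell thinned to 3000 UMIs, Ifitm1 was found in 46 of 331 young and 35 of 283 control Retnlg-high cells. The highest thinned cell of the young lineage had 83 of its 559 Ifitm1 UMIs, and whether that cell was Retnlg-high was not examined. In old cells 44.5% of the Ifitm1 UMIs of the lineage came from Retnlg-high cells, which held 8.10% of all UMIs.

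The other members differed less by this split. In old cells Retnlg-high cells were 2.45-fold higher in Ifitm6, 1.93-fold in Ifitm2 and 1.49-fold in Ifitm3. In young cells they were 3.44-fold higher in Ifitm6 and 1.95-fold in Ifitm2, and Ifitm3 was at 3395 against 1618 CPM. In control cells they were 2.59-fold higher in Ifitm6, 2.22-fold in Ifitm2 and 2.59-fold in Ifitm3. Retnlg-high cells also held fewer UMIs, with medians of 5140, 7181 and 4515 in young, old and control against 10517, 13288 and 9704 in the other cells, and the part of this in the ratios was not tested.

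The share of Retnlg-high cells among kept cells moved with the level of Ifitm1, so the libraries were also compared within each group. Old over young was 3.60 on the log2 scale (3.51 to 3.68) below the split and 3.14 (3.01 to 3.27) above it. Old over control was 5.27 (5.14 to 5.39) below it and 4.35 (4.12 to 4.58) above it, and with both groups weighted equally it was 4.41 in place of 5.49. Above the split the young and control levels of Ifitm1 rest on few cells, as given before. For Ifitm3 the ratio of old over young was 0.14 (0.13 to 0.15) below the split and -0.35 (-0.39 to -0.31) above it. The median of all genes was -0.061 below and -0.30 above, so above the split Ifitm3 lay near the median gene. For Ifitm3 old over control, weighting both groups equally gave 0.51, short of the limit. The Retnlg-high groups were not matched in stage either, with Elane at 1008 CPM in old, 3805 CPM in young and 3009 CPM in control cells.

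**Figure D3:**
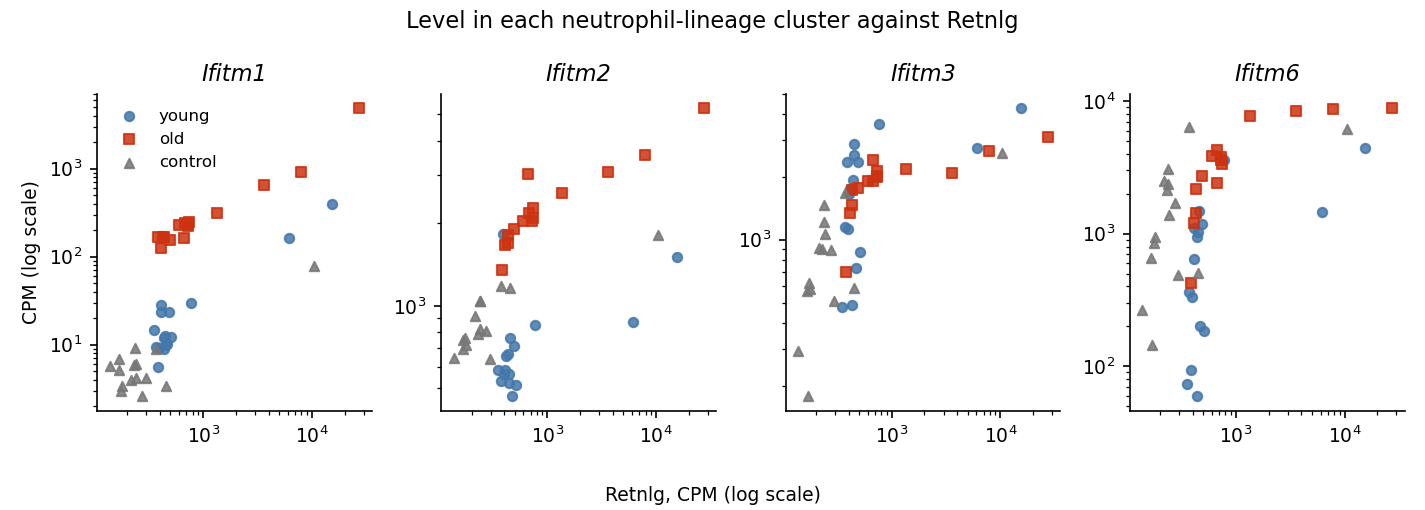
Each point is a cluster of neutrophil-lineage cells of a library, with Retnlg on the x axis and the Ifitm gene on the y axis, both in CPM on log scales whose ranges differ between panels; cells were clustered without the Ifitm and interferon genes. The highest Ifitm1 point is an old cluster at 4917 CPM, and the lowest old cluster, at 126 CPM, lies below the highest young cluster (402 CPM) and above the highest control cluster (78.7 CPM).

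Clusters of the lineage showed the same concentration. The highest Ifitm1 level was 4917 CPM in an old cluster of 431 cells led by Wfdc17, Prok2, Steap4, Arg2 and Pla2g7. That cluster was also the highest of 15 old clusters for Ifitm2 (5263 CPM), Ifitm3 (3105 CPM) and Ifitm6 (8891 CPM). The median over old clusters was 227 CPM for Ifitm1, against 12.4 CPM over 16 young and 5.15 CPM over 15 control clusters. The young and control clusters highest in Ifitm1, of 259 and 442 cells, were both led by Mmp8, the neutrophil collagenase, and reached 402 and 78.7 CPM.

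To compare shares of cells, each cell was thinned to 3000 UMIs, which left out no cell. Ifitm1 was found in 36.6% of old cells (35.6% to 37.6%), 4.45% of young cells (3.99% to 4.94%) and 2.22% of control cells (1.94% to 2.53%). Without thinning these were 73.9%, 11.0% and 5.26%. As a background, Ifitm1 was found after thinning in 2 of 91 young B progenitors (2.20%, 0.267% to 7.71%), with a median of 7625 UMIs against 10372.5 in the lineage. The share in young cells below the Retnlg split, 3.54%, lay inside that interval, although their level of 18.1 CPM (17.1 to 19.2) was above the 6.22 CPM (2.02 to 14.5) of the B progenitors. It lay inside the intervals of young dendritic-like cells (9.04 CPM, 2.46 to 23.1) and NK and T-like cells (10.8 CPM, 3.96 to 23.5). In the control library 0 of 8 B progenitors had a UMI, which allows up to 36.9%, so the 1.80% below the split could not be told from background there. The share in old cells below the split was 32.3%, and in that library no class that should lack the gene was found. Above the split Ifitm1 was found in 64.9% of old, 13.9% of young and 12.4% of control cells.

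The other members were common. Ifitm2 was found in 80.4% of young, 99.0% of old and 88.1% of control cells, Ifitm3 in 91.4% of young, 96.3% of old and 7826 of 9780 control cells, and Ifitm6 in 64.6%, 95.1% and 82.5%. Young B progenitors, the background used for Ifitm1, held Ifitm2 at 337 CPM, Ifitm3 at 755 CPM and Ifitm6 at 300 CPM. The part of background in these shares was not tested. After thinning, the 10% of old lineage cells with the most Ifitm1 held 78.5% of its UMIs, and the highest cell had 92 of 14428. In the young lineage the highest cell had 83 of 559, and in the control lineage 9 of 261. Across single thinned lineage cells the strongest pair was Ifitm3 with Ifitm6 in young (Spearman coefficient 0.68 over 6656 cells) and control (0.58 over 9713 cells). In old cells it was Ifitm2 with Ifitm6 (0.48 over 9608 cells), followed by Ifitm3 with Ifitm6 (0.39). The cells behind each value share a library and differ in stage.

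Other blood cells in the sort differed in which member they carried. Ifitm3 was at 5722 CPM in 371 young monocyte-like cells (5642 to 5803), 2724 CPM in 57 old and 3040 CPM in 34 control cells of that kind, above the lineage of the same library (1678, 1856 and 892 CPM). It was at 3736 CPM in 70 young dendritic-like cells. The 7 monocyte markers were all detected in each library and summed to 231 CPM in young, 30.0 CPM in old and 20.4 CPM in control cells, and in the lineage alone to 33.6, 14.8 and 8.79 CPM. In the young lineage alone Ifitm3 was at 1678 CPM in place of 1858 CPM.

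Ifitm1 had another pattern. It was at 610 CPM (516 to 716) in 26 young basophil and mast-like cells and at 714 CPM (502 to 984) in 8 control cells of that kind, far above the lineage of the same libraries at 25.1 and 7.29 CPM. In 3 old cells of that kind it was at 727 CPM (416 to 1181), and the intervals of the 3 libraries overlapped. In 10 young stem and progenitor-like cells it was at 957 CPM (721 to 1246). In young monocyte-like cells Ifitm1 was at 21.6 CPM (16.9 to 27.1) and overlapped the lineage, whereas in old ones it was at 264 CPM (223 to 310). The old lineage was at 364 CPM. These monocyte-like cells also held Retnlg, at 517 CPM in young and 763 CPM in old, beside 823 and 1686 CPM in the lineage. Whether neutrophil RNA added to their Ifitm levels was not tested. Ifitm6 was lower in monocyte-like cells than in the lineage in each library, at 460 against 901 CPM in young, 974 against 3840 CPM in old and 577 against 1996 CPM in control cells.

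The members were then set beside 44 other interferon-induced genes, of which 43 were in the files. Of the 33 that reached 10 CPM in young or old cells, 0 were higher and 32 lower in old than in young cells. Of all genes 4.36% were higher and 14.7% lower. The median log2 ratio of the 33 was -2.73 beside -0.15 over all genes. In old or control cells only 12 of the listed genes reached 10 CPM. Most of the 33 thus passed through the young library alone, which favours a lower call and a low median. Isg15, a ubiquitin-like modifier, stood at 153 CPM for young and 4.05 CPM for old cells. Bst2, the tetherin that holds viruses at the membrane, was at 162 and 9.98 CPM, and Rtp4 at 163 and 4.63 CPM. Ifi27l2a had the lowest ratio, -6.36, with 757 and 9.22 CPM. Samd9l was the exception, at 69.8 and 48.6 CPM, which is within the limit. Since the choice of the members rests on this opposite direction, it is given as a description.

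Control cells were also low in these genes. Of the 33 that reached 10 CPM against young, 0 were higher and 32 lower in control than in young cells, beside 1.59% higher and 6.62% lower of all genes. The median was -2.89, and here too most of the 33 passed through the young library alone. Between old and control, 12 genes had 10 CPM or more, of which 0 were higher and 2, Bst2 and Ifi27l2a, were lower in old cells. Of all genes 5.37% were higher and 8.78% lower. The median was 0.063, and with 12 genes these counts do not set the list apart from all genes. Among the members, Ifitm3 was lower in control than in young cells, as the listed genes were, but was at the young level in old cells, and Ifitm6 was lowest in young cells.

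**Figure D4:**
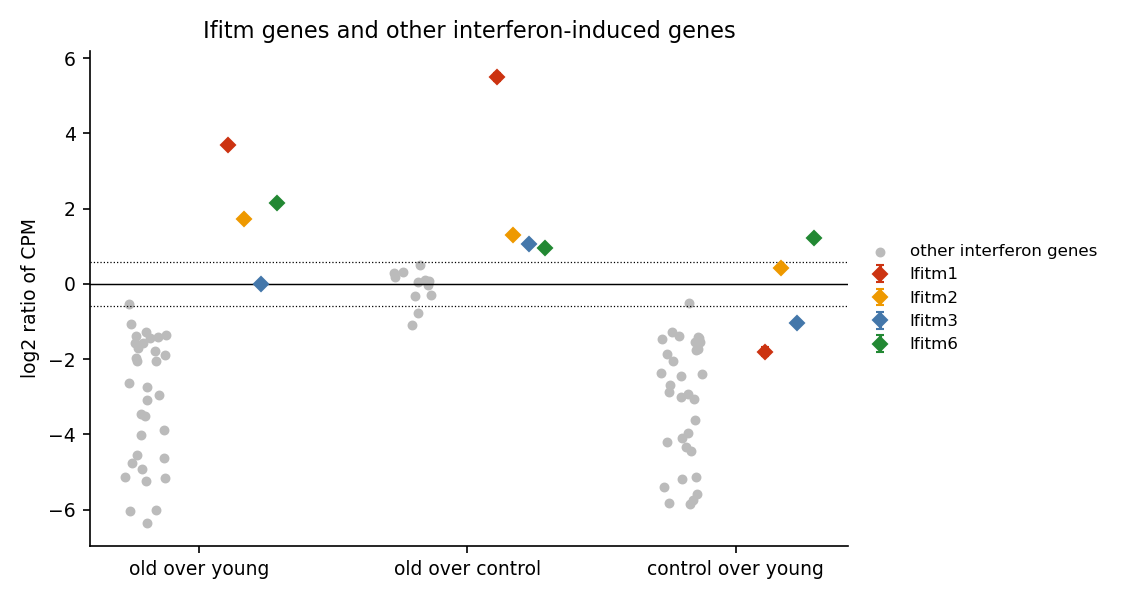
log2 ratio of CPM for the 4 Ifitm genes (coloured diamonds, with 95% counting intervals that are mostly smaller than the symbol) and for other interferon-induced genes that reached 10 CPM (grey), in the 3 comparisons; dotted lines mark 1.5 times. Old over young, 32 of 33 grey points lie below the lower line while Ifitm1 (3.69), Ifitm6 (2.16) and Ifitm2 (1.72) lie above the upper one. Most of these grey points reached 10 CPM through the young library alone.

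The genes that make and carry the interferon signal were mostly low. Ifnb1, Ifna4 and Ifnl3 had 0 UMIs in young and old cells and Ifng had 7 UMIs in young and 0 in old cells. Of the 14 listed ligands, receptors and signalling genes, 5 had 10 CPM or more, and 0 passed the limit between old and young (median -0.17) or old and control (median 0.24), where 19.1% and 14.1% of all genes passed it. With 5 genes these counts do not set the list apart from all genes. Between control and young 1 of 5, the factor Irf1, was lower (17.5 CPM for young and 9.99 CPM for control), beside 6.62% of all genes. The receptor chain Ifnar2 was at 41.1, 39.7 and 33.5 CPM in young, old and control cells, and Ifngr1 at 127, 107 and 103 CPM.

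Of 15 listed genes that process, move or bind IFITM proteins, 11 were tested between old and young, and 0 were higher and 2 lower in old cells, with a median of -0.098, beside 4.36% higher and 14.7% lower of all genes. These were Nedd4, the ubiquitin ligase of IFITM3 (32.5 CPM for young and 17.4 CPM for old), and the tetraspanin Cd81 (282 and 175 CPM). Zmpste24, a protease that acts together with IFITM proteins, was at 104 and 117 CPM and Vapa, a membrane contact protein, at 243 and 227 CPM. Against control, 1 of 11, Nedd4, was lower in old cells (median -0.082), beside 8.78% of all genes. Between control and young 0 of 11 passed (median -0.051), beside 8.21% of all genes. These counts do not set the list apart from all genes. Of the genes with the related CD225 domain outside the family, 0 reached 10 CPM.

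The neighbours of the cluster within 250 kb were listed for comparison. Of 28 protein-coding neighbours 26 were in the files and 8 were tested between old and young. Here 0 were higher and 1 was lower in old cells, beside 4.36% and 14.7% of all genes, with a median of -0.071, and that 1 was Irf7, itself an interferon-induced gene (81.6 CPM for young and 5.57 CPM for old). The proteasome gene Psmd13 was at 116 and 125 CPM, and the ribonuclease inhibitor Rnh1 at 72.4 and 85.8 CPM. Between old and control 1 of 5, Hras, was lower in old cells (median 0.18), beside 8.78% of all genes. Between control and young, of 8 tested, Hras was higher and Irf7 lower in control cells (median -0.15), beside 1.59% higher and 6.62% lower of all genes. With so few genes these counts do not set the neighbours apart.

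Within a library, cells with more interferon-list UMIs were compared with cells that had fewer, after thinning. In old lineage cells Ifitm1 was at 311 CPM in 2707 cells with 0 such UMIs, 392 CPM with 1 to 2, 936 CPM with 3 to 5 and 3462 CPM (3289 to 3641) in 145 cells with 6 or more. In control cells it was at 6.76, 7.81, 14.2 and 70.3 CPM in that order, the last (44.6 to 106) from 23 UMIs over 109 cells. In young cells, where 57.4% of the cells had 6 or more such UMIs, it was at 19.6 (4.04 to 57.3, over 51 cells), 49.7, 37.2 and 19.3 CPM. In old and control cells the highest value was thus at 6 or more interferon UMIs, and in young cells it was not.

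Retnlg moved with this grouping. Below the Retnlg split only 42 of the 145 old cells with 6 or more interferon UMIs were left, with Ifitm1 at 571 CPM (447 to 720), against 213 CPM in cells with 0. In young cells below the split it was at 33.9 CPM with 1 to 2, 14.7 CPM with 3 to 5 and 15.5 CPM with 6 or more. With 3 to 5, all 2135 young lineage cells held 238 Ifitm1 UMIs, and the 2115 of them below the split held 93. In control cells below the split Ifitm1 was at 6.43 CPM with 0, 6.77 CPM with 1 to 2 and 6.27 CPM with 3 to 5. With 6 or more it was at 25.3 CPM there (9.29 to 55.1), from 6 UMIs in 79 cells. For the other members over all lineage cells, from 0 to 6 or more interferon UMIs, Ifitm3 went from 1431 to 2291 CPM in young, from 1904 to 3028 CPM in old and from 948 to 2826 CPM in control cells. Ifitm2 was at 706 and 704 CPM in young cells and at 2181 and 4002 CPM in old cells. Below the Retnlg split the rises in old cells were small. Ifitm3 was there at 1854 and 1944 CPM (1709 to 2204), and Ifitm2 at 2047 and 2127 CPM (1880 to 2397). In the other libraries Ifitm3 still went from 1447 to 2141 CPM in young and from 928 to 2527 CPM in control cells below the split.

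**Figure D5:**
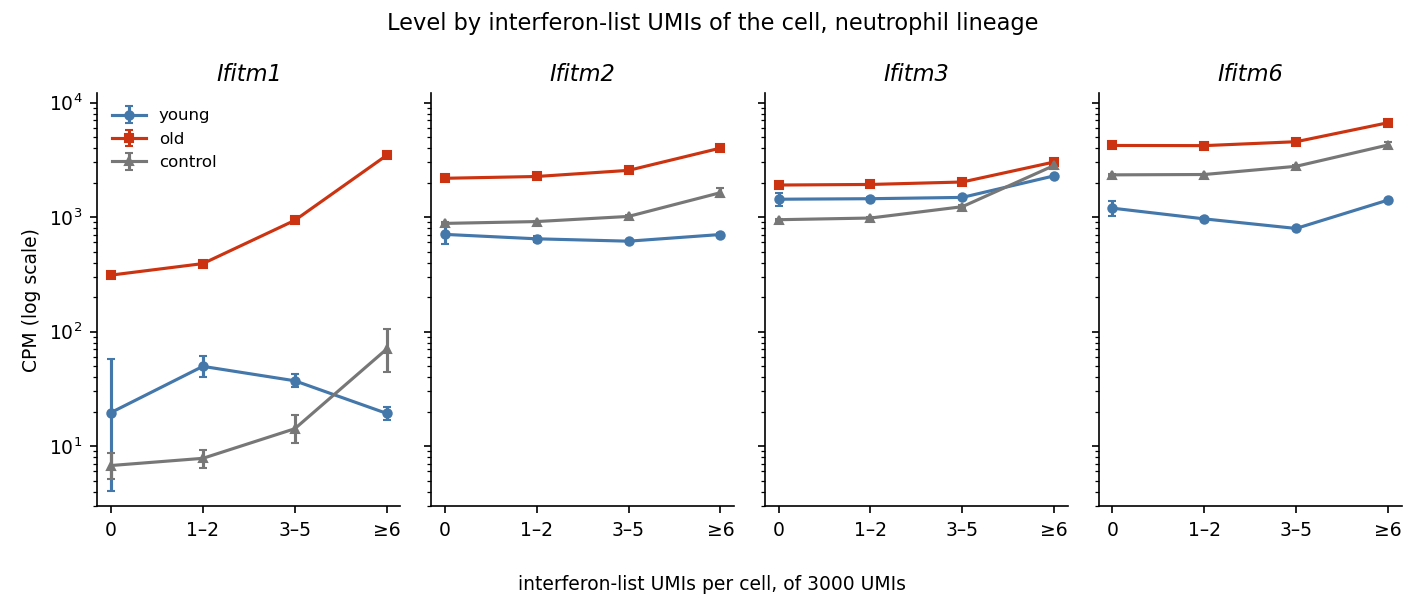
Level of each Ifitm gene in CPM (log scale) in lineage cells thinned to 3000 UMIs and grouped by their UMIs of the interferon list, with exact 95% counting intervals. In old and control cells Ifitm1 is highest at 6 or more (3462 and 70.3 CPM), while in young cells it is at 19.3 CPM there. The control value at 6 or more rests on 23 Ifitm1 UMIs.

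Genes with a course like that of Ifitm1 were sought over 12 values, the 4 Mpo bands of the 3 libraries, by Pearson correlation of log2(CPM + 1), for the 2674 genes that reached 50 CPM in at least 1 of them. The 12 values come from only 3 libraries, and the coefficients serve to order genes. The 10 most alike were Wfdc17 (0.97), Mrgpra2a (0.97), Mrgpra2b (0.97), Il1f9 (0.96), Mpst (0.96), Stfa2 (0.95), H1f0 (0.94), Acadl (0.94), Asprv1 (0.94) and Sri (0.93). Wfdc17, a small secreted protein with a whey acidic protein domain, was at 533 CPM in old, 21.5 CPM in young and 15.5 CPM in control cells with the lowest Mpo. Il1f9, a cytokine of the interleukin 1 family, was at 70.9, 12.5 and 11.9 CPM, and Asprv1, an aspartic protease, at 117, 8.34 and 4.05 CPM. The coefficient does not measure the size of a difference, and others of the list differed much less. In the same order Sri was at 621, 437 and 416 CPM and Mpst at 51.7, 38.3 and 31.2 CPM. Among the members Ifitm2 was the closest to Ifitm1 (0.85), followed by Ifitm3 (0.58) and Ifitm6 (0.50), while Ifitm3 and Ifitm6 had 0.78 with each other.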

How the data were processed

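Single CD133+ bone marrow cells were sequenced as 3 libraries with the 10x Chromium 3′ v2 kit. The submitters' processing notes name STAR, Cell Ranger 2.1.0 and the build mm10, and the authors deposited whole UMI counts for each gene of each called cell, without normalization. Whether strand was used in counting is not given in the sources used here. The 4 genes, all lists and the splits were chosen with earlier results of these data known.

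Cells with fewer than 200 genes, more than 20% mitochondrial UMIs, or a UMI count outside the 5th to 95th percentile (taken over young and old together and over control alone) were left out. Cells were clustered within each library, since a joint clustering separated the libraries, a choice made after seeing the data (Leiden resolution 1, 2000 variable genes, 20 components, 15 neighbours, without Ifitm, interferon, neighbouring genes and Mpo). Clusters with at least 3 markers of another blood cell 10 times above the other cells were set aside. Haemoglobin genes were left out of that count, after they had marked neutrophil clusters as erythroid. Within the clusters set aside, a cell took the name of a list with at least 5 UMIs and 2 times the next list. Scrublet called 2 young, 281 old and 2 control cells and was judged not to have worked in young and control, so doublets were left in and the 5% of highest scores removed as an alternative. UMIs were summed and given per 1000000 (CPM). Intervals are exact Poisson, Clopper-Pearson or conditional binomial at 95% and cover counting error only. With 1 library per condition no test was made. Genes named are the members, the other family genes, the fixed lists, the neighbours, cluster leaders and the 10 genes most like Ifitm1. Positions and coding sequences came from GENCODE M21 (GRCm38) and promoters from RefSeq. The ratio code was tested on simulated data. The tools were scanpy 1.11.5, leidenalg 0.10.2, scipy 1.17.1, matplotlib 3.10.9, pandas 2.3.3 and numpy 2.4.6 under Python 3.11.15.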

Additional observations from a re-analysis of the deposited data

Results flagged for a closer look

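The sign of the Ifitm3 ratio differed between stages under the same contrast. The log2 ratio of old over young was -0.12 in cells with fewer than 2 Mpo UMIs per 10000 UMIs and 0.78 in cells with 10 to 50. The median of all genes was -0.055 and 0.048 in these bands, so the negative value lay near it. Over all kept cells, median-of-ratios size factors gave 0.30 in place of 0.0016, so the sign of a value as small as -0.12 depends on the scaling. With a single library per age the difference between these groups was not tested.

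Cells left out for a low UMI count also carried Ifitm1. In the 139 such old cells it was at 2521 CPM (2381 to 2667), against 149 CPM in 544 control and 111 CPM in 809 young cells removed for a low count. Retnlg in them was at 21317, 8936 and 16544 CPM. The lower limit was 3826.9 UMIs for young and old cells and 3422.4 UMIs for control cells, so the removed groups are not matched.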

How the results depend on the processing

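Ifitm1 was higher in old than in young cells under all 14 alternatives, at log2 ratios from 3.18 to 4.01, beside 3.69. It was 3.54 with all deposited cells, 3.86 with other blood clusters set aside, 3.26 without cells that had 3 or more UMIs of other-cell markers (976 young cells left), 3.98 with median-of-ratios size factors and 3.97 unscaled. It was 3.99 with Mpo edges of 1, 5, 20 and 80, 3.59 with Elane bands, 4.01 after thinning to 3000 UMIs, and, by alternatives chosen after seeing the data, 3.18 with the Retnlg groups weighted equally and 3.60 below the split alone. At 5000 UMIs the shares of cells with Ifitm1 were 48.1% in old, 6.34% in young and 2.84% in control cells. The number of members past the limit remained 3 for old over young, and was 3 to 4 for old over control and 2 to 4 for control over young. For Ifitm6 old over young the log2 ratio was 1.36 without cells with other-cell markers, beside 2.16. With other blood clusters set aside it was 2.09. The marker filter mostly removed lineage cells, in which the NK and T cell markers alone summed to 762 CPM in young. For Ifitm3 old over control the ratio was 0.51 with the Retnlg groups weighted equally, beside 1.05. Ifitm3 old over young ranged from -0.48 to 0.30 and never passed the limit. The cause of these movements was not tested. Size factors moved the median of all genes, old over young, from -0.15 to 0.17. Of the 10 genes most like Ifitm1, 8 were also among the 10 by Spearman, and Leiden resolution 0.5 left its lineage levels inside their intervals. No paired analysis was possible because each condition is a single library. At 3000 UMIs the shares with Ifitm1 below the Retnlg split in young and control cells lay inside the intervals of the B progenitors of their library. The control interval rested on 8 cells and was too wide to decide. In young cells the level of 18.1 CPM (17.1 to 19.2) was above the 6.22 CPM (2.02 to 14.5) of the B progenitors. It lay inside the intervals of the young dendritic-like and NK and T-like cells.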
